A study of Homo sapiens with 2 samples.

Results

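Of the 19112 genes listed in the count table of a CRISPR knockout screen in Ewing sarcoma cells, 212 (1.11%) were represented by only 1 or 2 sgRNAs. These genes were found by dropping repeated sgRNA entries, taking the gene symbol stored with each sgRNA and counting the sgRNAs left for each symbol. The rule sets no threshold on reads, but an sgRNA without a read in either library has no entry, so the listed number depends on reads. The 212 genes held 403 of the 74336 distinct listed sgRNAs (0.542%), with 21 genes represented by 1 sgRNA and 191 by 2. For comparison, 1667 genes had 3 listed sgRNAs and 17233 had 4.

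The 2 libraries came from A673 cells, an Ewing sarcoma line whose fusion oncoprotein EWSR1::FLI1 is dispensable for growth in the dish, though not for tumor formation. All cells in both libraries carried Cas9, a tdTomato reporter for expression of EWSR1::FLI1 and EGFP as a control fluorophore. The reporter line was derived from 1 clone, so any feature of that clone is shared by both libraries. The cells were transduced with the Brunello knockout library at a multiplicity of infection of 0.3, selected in puromycin at 2 µg/ml for 12 days and left to recover without puromycin for 3 days. The unsorted library was made from this whole population, and the sorted library from the tdTomato-low EGFP-high cells, about 7% of the population, which were collected by flow cytometry and expanded. The unsorted library held 10483144 reads and the sorted library 1455322, so an sgRNA with the same share of both libraries had 7.20 unsorted reads for each sorted read. Each population was sequenced as 1 library with no replicate, and every test below therefore compares these libraries rather than the conditions.

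In a pooled screen each cell receives mainly 1 sgRNA, the 20-base part of which directs Cas9 to a matching site, and the sgRNA cassette read from genomic DNA acts as a tag for the cell and its progeny. Cells that lose a gene needed for growth leave fewer progeny, whereas cells with the sorted reporter state gain share in the sorted library. A gene is usually judged by the agreement of several sgRNAs with different sequences, because 1 sgRNA may fail to cut, may cut elsewhere or may be carried by few cells. Genes with near-identical copies in the genome pose a separate problem, since sgRNAs of different copies may differ by a base or less. No plasmid pool or earlier harvest was analysed here, so the starting amount of each sgRNA is unknown.

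The genes with 1 or 2 listed sgRNAs fell mainly into broad role groups around the core machinery of dividing cells on one side and families of near-identical genes on the other. The sequences show why the families must be read with care. Each of the following pairs shows an sgRNA of these genes and the nearest sgRNA listed for a different gene, with the mismatched base in capitals.
OR2M2: gaaggccatcttgggtacGg
OR2M7: gaaggccatcttgggtacAg
TBC1D3: tcatttcctcaGtgttcagg
TBC1D3B: tcatttcctcaAtgttcagg
HIST1H2BK: cgacatcttcgaAcgcatcg
HIST2H2BF: cgacatcttcgaGcgcatcg
MTRNR2L1: cttgtCtgaatggctccacg
MTRNR2L2: cttgtAtgaatggctccacg
The olfactory receptor pair had 1 unsorted read for OR2M2 and 2 for OR2M7. The TBC1D3 pair, from a family of recently duplicated genes, had 4 and 2, the histone H2B pair 9 and 2, and the MTRNR2L pair, copies of a mitochondrial rRNA segment, 7 and 1. None of these 8 sgRNAs had a sorted read.

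A further set of sequences carries the contrasts described below. The 2 genes with both listed sgRNAs enriched in the sorted library were CDK4 and CGB1, and the 2 genes whose only listed sgRNA was enriched were INTS1 and HGC6.3.
CDK4: ccagatggcacttacacccg
CDK4: gtccacatatgcaacacctg
CGB1: acagctgagagccacggcgt
CGB1: cggtagttgcacaccacctg
INTS1: tgccacacaggtgtacatcg
HGC6.3: tccccctgcagtgtgttggg
NPIPB6 had the largest odds ratio of the set on one sgRNA and no sorted read on the other, and PCNA and RPL11 were split in the same way, with the enriched sgRNA of each gene first.
NPIPB6: aagacgtcattactctacgg
NPIPB6: ccatacctttctgtctactg
PCNA: atacgtgcaaattcaccaga
PCNA: tgcttcaaatactagcgcca
RPL11: tgtccactgcacagttcgag
RPL11: ttcatttctccggatgccaa
MED7 and PSMB7 had among the highest unsorted counts of the genes without any sorted read, while COPE and DAD1 were each listed by 1 sgRNA with 1 unsorted read.
MED7: ttcttgtgatcaaactgcat
MED7: tattccttgatatattgcat
PSMB7: accaggtatcaaggttacat
PSMB7: gcagatacaagagcaactga
COPE: ctaccagcagtgcataaacg
DAD1: cgggcttcatctcttgtgtg

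The sgRNAs of these genes were scarce in the unsorted cells. Their median was 46 unsorted reads, with a range from 1 to 459, against 71 for genes with 3 listed sgRNAs and 106 for genes with 4. The order followed the number of listed sgRNAs from 2 upward, although the sgRNAs that stood alone for their gene had a median of 54 against 45.5 for those listed in pairs. Fewer than 30 unsorted reads were found for 155 of the 403 sgRNAs (38.5%), compared with 24.6% for genes with 3 and 13.0% for genes with 4. Fewer than 10 were found for 68 (16.9%), compared with 4.54% of all listed sgRNAs. Every one of the 403 had at least 1 unsorted read, and no sgRNA of the table was listed with 0 reads in both libraries, so an sgRNA that gave no read at all has no entry. Genes with few listed sgRNAs are thus chosen in part by reads, and the part of this selection in the low counts was not tested. The library was described as 76441 sgRNAs for 19114 genes, which is 2105 sgRNAs more than are listed. The 212 genes lacked 445 sgRNAs relative to 4 per gene, 21.1% of the 2112 lacking over all genes. That total is close to the 2105, so nearly all sgRNAs lacking over all genes were part of the described library. The number designed for each single gene of the 212 was not known here. Whether a missing sgRNA was lost or left unassigned was not tested.

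The sgRNA sequences themselves were not unusual in composition. The median GC content was 50% both for these sgRNAs and for all others, and 6.70% of them had a GC content of at least 70%, against 6.81% of the others. A G at the last of the 20 bases was found in 54.8%, against 55.4%, and a run of the letters GGGG in 1.74%, against 2.66%. The feature that set some of them apart was similarity to another sgRNA of the library. Another listed sgRNA within 3 mismatches existed for 37 of the 403 (9.18%), in 32 genes, compared with 5.48% for genes with 3 listed sgRNAs and 2.56% for genes with 4.

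Those 37 sgRNAs had a median of 3 unsorted reads and none exceeded 35. In the whole table, sgRNAs whose nearest neighbour differed at 1 position had a median of 3 unsorted reads, at 2 positions 5 and at 3 positions 9, whereas at 4 positions the median was 105. The step between 3 and 4 coincides with the mapping settings, under which a read was aligned with up to 3 mismatches and discarded if it fitted more than 1 library sgRNA. The part of this setting in the low counts was not tested. Of the 37, 34 had no sorted read and none was called enriched, and 31 were grouped under copy families or histone genes. The 31 leave out the sgRNA of LOC102724862, which RefSeq names TBC1D3I. The remaining 366 sgRNAs, with no such neighbour, still had a median of 54.5 unsorted reads, below the 107 of all sgRNAs without one.

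In the sorted library, 290 of the 403 sgRNAs had no read (72.0%, 95% Wilson interval 67.4 to 76.1), compared with 57.6% of all listed sgRNAs. The share was 66.2% for genes with 3 listed sgRNAs and 56.9% for genes with 4. The difference was narrower among sgRNAs with at least 30 unsorted reads, at 62.5% of 248 against 54.5% of all such sgRNAs. For genes with 3 or 4 listed sgRNAs, the share varied by gene list, from 51.9% for defensins to 78.5% for RNA polymerase subunits. It was 69.5% for cytosolic ribosomal proteins, 71.0% for replication genes, 72.1% for tRNA synthetases and 74.0% for histones. The comparison with 57.6% was thus not matched for gene class. The 113 sgRNAs that were recovered after sorting had a median of 34 sorted reads, close to the 40 of all recovered sgRNAs. Summed over all 403, the reads made up 0.301% of the unsorted and 0.314% of the sorted library, so the set as a whole kept its share while most of its sgRNAs had no sorted read. Intervals and limits given here cover counting error only, since PCR copies were not told apart by molecular identifiers.

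Calls required a p under 0.05 in Fisher's exact test after adjustment over all 74336 sgRNAs by the Benjamini-Hochberg method, together with an odds ratio of 2 or more for enrichment in the sorted library and of 0.5 or less for depletion. By this rule 67 of the 403 were enriched (16.6%, 95% Wilson interval 13.3 to 20.6), compared with 20.8% of all listed sgRNAs. Depletion was called for 159 (39.5%), compared with 51.7% of all. The depth limits this call, since an sgRNA without a sorted read needed at least 31 unsorted reads to pass, and 137 of the 290 without a sorted read had fewer. Among sgRNAs with at least 30 unsorted reads, 21.0% were enriched and 64.1% depleted, against 21.4% and 60.0% of all such sgRNAs. The enriched share at this depth was thus near the background, and gives no result about these genes.

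In percentage points, the widest difference from other genes was found from 1 to 9 unsorted reads, with smaller differences at greater depth. In that range 1 of the 68 sgRNAs of the set was enriched (1.47%), compared with 8.93% of those of genes with 3 or 4 listed sgRNAs, and 92.6% compared with 83.6% had no sorted read. Genes with 3 or 4 listed sgRNAs also had 230 sgRNAs with 0 unsorted reads, of which 211 were enriched, and these lie outside the range. From 30 to 99 unsorted reads the enriched shares were 21.7% and 26.7%, and from 100 to under 300 they were 21.6% and 20.7%. The share without a sorted read was higher in these genes in every range of unsorted reads. It was 82.8% against 76.3% from 10 to 29, 70.3% against 65.5% from 30 to 99 and 54.6% against 50.0% from 100 to under 300. The sgRNAs within a range share no common target, but those of 1 gene do, and no test was made of these differences.

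Counts over genes depend on how many sgRNAs a gene has. At least 1 enriched sgRNA was listed for 65 of the 212 genes (30.7%), compared with 46.3% of genes with 3 listed sgRNAs and 60.9% of genes with 4. All listed sgRNAs were enriched for 4 of the 212 (1.89%), compared with 0.600% and 0.174%. At the other end, 113 genes (53.3%) had no sorted read on any listed sgRNA, which was the case for 31.5% of genes with 3 listed sgRNAs and 12.5% of genes with 4. These shares are partly fixed by the number of sgRNAs that must agree, so pairs of sgRNAs were also compared. The pair shares still depend on the shares of single sgRNAs and on unsorted depth, and agreement within genes was not tested. Among the 191 pairs, both lacked sorted reads in 97 (50.8%), compared with 44.9% of the pairs that can be formed within genes with 3 listed sgRNAs and 33.4% within genes with 4. Both were enriched in 2 pairs (1.05%), compared with 3.62% and 4.43%. In 35 pairs (18.3%) one sgRNA was enriched and the other depleted, compared with 19.5% and 22.0%. A requirement of 4 enriched sgRNAs per gene cannot be met by any of the 212 genes whatever their effect.

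The 2 genes with both sgRNAs enriched differ in function. CDK4, the cyclin D-dependent kinase that drives entry into the cell cycle, had 32 unsorted and 24 sorted reads on its first sgRNA and 12 and 32 on its second. The odds ratios were 5.4 (95% interval 3.04 to 9.46) and 19.2 (9.63 to 41.0), with adjusted p-values of 2.93e-08 and 2.75e-19 by Fisher's exact test. CGB1, a member of the chorionic gonadotropin beta cluster expressed in placenta, had 44 unsorted and 48 sorted reads on the first sgRNA and 10 and 21 on the second. Its odds ratios were 7.86 (5.11 to 12.1) and 15.1 (6.82 to 36.0). The intervals of the paired sgRNAs overlapped for CGB1, and for CDK4 the second lay just above the first. CGB2, listed directly beside CGB1 in the annotation, had 41 and 25 reads on an enriched sgRNA but 58 and 0 on the other.

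The 2 enriched sgRNAs that stood alone for their gene rested on more reads. INTS1, the largest subunit of the Integrator complex that processes small nuclear RNAs, had 63 unsorted and 96 sorted reads, which gave an odds ratio of 11 (7.91 to 15.3) and an adjusted p of 5.72e-45 by Fisher's exact test. This was the largest odds ratio of the set among sgRNAs with at least 30 unsorted reads. HGC6.3, an uncharacterized gene, had 257 unsorted and 91 sorted reads and an odds ratio of 2.55 (1.99 to 3.25). H3F3A, which encodes the replacement histone H3.3, had 130 and 36 reads, an odds ratio of 1.99 (1.34 to 2.90), just short of the threshold of 2. No second sgRNA of these 3 genes was listed against which to check the value. Of the other 18 sgRNAs that stood alone, 16 had no sorted read.

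The genes were placed by known role into 13 groups, described in turn below, of which 1 holds the genes that were placed in no other group. The 95% Wilson interval of the enriched share covered the 20.8% of all sgRNAs in 12 groups, and for the translation factors and tRNA synthetases its upper limit lay just below. The interval of the share without a sorted read lay above 57.6% in 6 groups and covered it in 7. The 57.6% is the share of all sgRNAs and is not matched for gene class. Counts given below for each group are to be read against 57.6% without a sorted read, 20.8% enriched and 51.7% depleted. These intervals treat sgRNAs as independent although those of 1 gene share a target, the groups differ in unsorted depth, and no test was made between groups.

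The cytosolic ribosomal proteins, which build the small and large ribosomal subunits, formed one of the largest groups of core machinery. Genes with 1 or 2 listed sgRNAs made up 19 of the 86 genes whose symbols carry the RPL or RPS stem (22.1%), compared with 1.11% of all genes and 0 of 77 mitochondrial ribosomal protein genes. Their 37 sgRNAs had a median of 30 unsorted reads and ranged from 2 to 325, while the other sgRNAs of the list had a median of 42. No sorted read was found for 28, 6 were enriched and 11 depleted. RPL11, which also binds the p53 regulator MDM2, was split most widely: one sgRNA had 13 unsorted and 21 sorted reads, which gave an odds ratio of 11.6 (5.56 to 25.3), and the other had 308 unsorted reads and none sorted, at least 14.3-fold lower in share against a floor of 3 reads. RPL17 had 55 and 60 reads on an enriched sgRNA, with an odds ratio of 7.86 (5.36 to 11.5), and 26 and 0 on the other. RPL32 had 26 and 325 unsorted reads and no sorted read on either sgRNA. RPL14, RPL13A, RPL18 and RPS29 each had 1 enriched sgRNA, with odds ratios from 2.78 to 3.93, and in each of these genes the other sgRNA had no sorted read. RPS3A was low on both, with 196 unsorted and 6 sorted reads on one sgRNA and 239 and 0 on the other. Both of these sgRNAs were depleted.

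Translation factors and tRNA synthetases gave no enriched sgRNA among 15 in 8 genes, which leaves a Wilson upper limit of 20.4%, and 13 of the 15 lacked sorted reads. EEF2, the elongation factor that moves the ribosome along mRNA, had 88 and 195 unsorted reads with no sorted read, the second at least 9.02-fold lower. MARS, the methionyl-tRNA synthetase, had 31 and 113 unsorted reads and none sorted. For IARS (30 and 7), EIF3L (28 and 5) and VARS (25 on its only sgRNA), all 5 counts lay below the 31 unsorted reads needed for a call. QARS was recovered on 1 sgRNA, with 359 unsorted and 42 sorted reads and an odds ratio of 0.843 (0.597 to 1.16), which is near an equal share. PABPC1, the poly(A)-binding protein, was depleted on both, with 205 and 14 reads on one and 117 and 0 on the other. The 7 genes of ribosome assembly had no enriched sgRNA among 14, but here the Wilson upper limit was 21.5%, which covers the 20.8% of all. No sorted read was found for 12 of the 14 (85.7%, interval 60.1 to 96.0), against 57.6% of all. Fibrillarin (FBL), the methyltransferase of box C/D small nucleolar particles, had 32 and 10 unsorted reads, and its partner NOP58 had 40 and 65, without a sorted read for either gene.

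Splicing and RNA processing genes had 25 sgRNAs in 13 genes, with a median of 77 unsorted reads. No sorted read was found for 13 (52%) and 7 were enriched (28.0%), both near the shares of all sgRNAs. Each of the 7 enriched sgRNAs came from a different gene. SRSF2, a serine- and arginine-rich splicing factor, had 123 unsorted and 70 sorted reads on the enriched sgRNA, an odds ratio of 4.10 (3.01 to 5.54), and 5 and 2 on the other. DIS3, the catalytic subunit of the nuclear exosome, had 18 and 24 reads, an odds ratio of 9.60 (5.00 to 18.8), and 83 and 19 on the other, with a ratio of 1.65. PRPF4 and PPIH, both of the U4/U6 small nuclear particle, each had 1 enriched sgRNA with ratios of 4.32 and 4.34 and 1 sgRNA with no sorted read, at 235 and 151 unsorted reads. BUD31, another splicing factor, had no sorted read on either sgRNA, with 193 and 84 unsorted reads.

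Transcription and chromatin genes had 39 sgRNAs in 20 genes, of which 31 lacked sorted reads (79.5%) and 4 were enriched (10.3%). MED7, a Mediator subunit, had 407 unsorted reads and none sorted on one sgRNA, at least 18.8-fold lower, with an adjusted p of 3.28e-22 by Fisher's exact test, and 44 and 0 on the other. The Mediator genes MED11 and MED30 also had no sorted read on either sgRNA, with 25 and 188 and with 15 and 172 unsorted reads. Of the genes with the MED stem, 3 of 29 belonged to the set. SUPT4H1, of the elongation factor DSIF, had 259 and 8 unsorted reads, and the RNA polymerase II subunits POLR2D and POLR2F had 14 and 150 and 39 and 66, all without sorted reads. CDK9, the kinase of P-TEFb that releases paused polymerase, was enriched on 1 sgRNA, with 39 unsorted and 44 sorted reads and an odds ratio of 8.13 (5.16 to 12.8), and had 20 and 0 on the other. CDK12, which also phosphorylates the polymerase tail, had 63 and 81 unsorted reads and none sorted. The small MAF protein MAFF was divided at nearly equal depth, with 99 unsorted and 91 sorted reads on one sgRNA and 96 and 0 on the other.

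Of the 27 sgRNAs of DNA replication and repair genes, 23 had no sorted read. The 3 that were enriched belonged to PCNA, RRM2 and DUT, and each of these genes was depleted on its other sgRNA. PCNA, the sliding clamp of replication, had 25 unsorted and 65 sorted reads on the enriched sgRNA, an odds ratio of 18.7 (11.6 to 31), and 187 and 0 on the other, at least 8.65-fold lower. RRM2, the small subunit of ribonucleotide reductase, had 16 and 63 reads, a ratio of 28.4 (16.2 to 52.6), and 49 and 0. DUT, the dUTPase that keeps uracil out of DNA, had 30 and 27 reads, a ratio of 6.48 (3.71 to 11.3), and 292 and 0, at least 13.5-fold lower. The intervals of the paired sgRNAs were thus far apart in all 3 genes, and the pair gave no common direction. MCM3 of the replicative helicase, with 58 and 61 unsorted reads, and the clamp loader subunit RFC1, with 68 and 58, were depleted on both. CDC7, the kinase that fires replication origins, had 8 and 1 unsorted reads, and RPA3 14 and 17, too few for a call.

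Cell cycle and mitosis genes had 23 sgRNAs in 12 genes, of which 16 had no sorted read and 5 were enriched. Among genes with cyclin or cyclin-dependent kinase symbols, 6 of 31 (19.4%) had 1 or 2 listed sgRNAs, and the median unsorted count of their sgRNAs was 30, while the rest of the list reached 109. Besides CDK4, CDK9 and CDK12, these were CDK1, the mitotic kinase, with 23 and 118 unsorted reads, its partner CCNA2 with 35 and 26, and CCND1, the D-type cyclin that activates CDK4, with 28 and 13. None of the 6 sgRNAs of CDK1, CCNA2 and CCND1 had a sorted read, although at 28 and 13 unsorted reads neither sgRNA of CCND1 could be called. CDC23, of the anaphase-promoting complex, had 170 unsorted and 110 sorted reads on an enriched sgRNA, with an odds ratio of 4.66 (3.63 to 5.96), and 41 and 0 on the other. CENPM, a centromere protein, had 54 and 45 on an enriched sgRNA, with a ratio of 6.0 (3.95 to 9.08), and 179 and 0 on the other. CKAP5, a microtubule polymerase, had 83 and 58, with a ratio of 5.03 (3.54 to 7.12), and 37 and 0.

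Proteasome and protein folding genes had a higher median of 90 unsorted reads, yet 15 of their 19 sgRNAs had no sorted read and 1 was enriched. PSMB7, a catalytic subunit of the proteasome, had 146 and 280 unsorted reads and none sorted, the second at least 13.0-fold lower. BAG2, a co-chaperone of HSP70, had 266 and 101, again with none sorted. Both genes had enough reads for a call on each sgRNA, and all 4 were depleted. The enriched sgRNA belonged to SGTA, another co-chaperone, with 14 unsorted and 9 sorted reads, a ratio of 4.63 (1.77 to 11.5), while its other sgRNA was depleted with 253 and 12.

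The secretory pathway, membrane traffic and nuclear transport genes had a median of 28 unsorted reads, the lowest of the core groups, and 20 of 27 sgRNAs without a sorted read. COPE, a coatomer subunit, and DAD1, of the oligosaccharyltransferase, were each represented by 1 sgRNA with 1 unsorted read, and these carry no information on the sorted cells. KPNB1, importin beta, had 35 unsorted reads and none sorted on its only sgRNA, an adjusted p of 0.0238 by Fisher's exact test. XPO1, the nuclear export receptor, had 12 and 11, too few for a call. The enriched sgRNAs were those of TRAPPC5 (67 unsorted and 67 sorted reads, odds ratio 7.20, interval 5.06 to 10.3), ALG2 (19 and 37, ratio 14.0, interval 7.86 to 25.8), RAB11A (106 and 65, ratio 4.42) and CHMP2A (239 and 67, ratio 2.02). These belong to a vesicle tethering complex, N-glycan synthesis, endosome recycling and the ESCRT-III complex, respectively. The second sgRNA had 36 and 0 reads for TRAPPC5, 11 and 0 for ALG2, 60 and 10 for RAB11A and 1 and 0 for CHMP2A, so none of the 4 genes had a second enriched sgRNA.

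Among pumps and enzymes of energy, redox and protein modification, 7 of 22 sgRNAs in 12 genes were enriched (31.8%, Wilson interval 16.4 to 52.7), each in a different gene. ATP5E, the epsilon subunit of mitochondrial ATP synthase, had 76 unsorted and 113 sorted reads on the enriched sgRNA, an odds ratio of 10.7 (7.94 to 14.5) with an adjusted p of 3.75e-52 by Fisher's exact test, and 228 and 20 on the other, a ratio of 0.632 (0.379 to 0.999). NAA50, an N-terminal acetyltransferase, had 65 and 32 reads, a ratio of 3.55 (2.25 to 5.50), and 327 and 0, at least 15.1-fold lower. The V-ATPase subunit ATP6V1G1 had 46 and 28 on an enriched sgRNA and 59 and 0 on the other, while ATP6V0D1 of the same pump had 38 and 163 unsorted reads and none sorted. GAPDH, the glycolytic enzyme, had 28 unsorted reads and none sorted on its only sgRNA, and its adjusted p of 0.0533 by Fisher's exact test missed the threshold at this depth. GPX4, which detoxifies lipid peroxides, had 12 and 7 unsorted reads.

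The families of near-identical or tandem copies made up the largest role group, with 96 sgRNAs in 50 genes, a median of 28.5 unsorted reads, 67 sgRNAs without a sorted read, 17 enriched and 27 depleted. Of these sgRNAs 26 had another listed sgRNA within 3 mismatches. The testis-linked ubiquitin protease family USP17L contributed 7 of its 25 listed genes, compared with 3 of 7 for TBC1D3 and 2 of 6 for the CGB genes. The TBC1D3 count goes by stored symbol and leaves out LOC102724862, which RefSeq names TBC1D3I. USP17L27 had 43 unsorted and 42 sorted reads on an enriched sgRNA, with an odds ratio of 7.04 (4.49 to 11), and 2 and 0 on the other. USP17L25 had 32 and 28, with a ratio of 6.3 (3.66 to 10.8), and 44 and 0. USP17L28 and USP17L29, neighbours of USP17L27 in the annotation, had 1 and 1 and 6 and 7 unsorted reads, with none sorted. An sgRNA listed for one copy may also match others, and the file assigns it to 1 symbol, so values of these families cannot be given to a particular copy. NPIPB6, of the nuclear pore interacting family, had 6 unsorted and 49 sorted reads, which gave an odds ratio of 58.8 (25.2 to 168), and 4 and 0 on the other sgRNA. Its ratio was the largest of the 403 but rests on 6 unsorted reads.

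Other copy families held enriched sgRNAs, sgRNAs near an equal share and sgRNAs with no sorted read. DUX4, a germline transcription factor encoded in a repeat array, had 25 unsorted and 33 sorted reads on an enriched sgRNA, with a ratio of 9.51 (5.48 to 16.7), and 5 and 0 on the other. LRRC37A3 had 29 and 45, with a ratio of 11.2 (6.86 to 18.5), and 32 and 0. C4A, a complement component with a close copy in C4B, had 29 and 37, a ratio of 9.19 (5.50 to 15.5), and 24 and 0. The beta-defensin genes DEFB106B and DEFB107B had the most unsorted reads per listed sgRNA of the families: DEFB106B had 322 and 0 on one sgRNA and 217 and 97 on the other, and DEFB107B had 430 and 40 on its only sgRNA. KRTAP8-1, a hair keratin-associated protein, had 22 unsorted and 51 sorted reads, a ratio of 16.7 (9.95 to 28.9), and 378 and 59 on the other, a ratio of 1.12 (0.840 to 1.48). Of the cancer-testis genes, CT45A2 was enriched on 1 sgRNA with 224 and 75 reads, a ratio of 2.41 (1.83 to 3.15), and had 3 and 0 on the other. CT45A1 had 335 and 48 on one sgRNA, a ratio of 1.03, and 106 and 0 on the other, which was depleted. SPANXA2 had 129 and 89 unsorted reads and none sorted. The olfactory receptor genes OR2M2, OR2M5 and OR1L6 had no sorted read on any of their 6 sgRNAs. They were 3 of 374 listed olfactory receptor genes (0.802%), near the 1.11% of all genes.

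Histone genes, whose many copies encode nearly the same proteins, had 14 sgRNAs in 8 genes, of which 11 had no sorted read and 5 had a neighbour within 3 mismatches. HIST1H4F, one of the H4 copies, had the only enriched sgRNA, with 131 unsorted and 97 sorted reads and an odds ratio of 5.33 (4.06 to 6.99), and 3 and 0 on the other, which had such a neighbour. HIST2H2AA4 had 8 and 129 unsorted reads and HIST1H2BJ 86, none with a sorted read. HIST2H3A and HIST2H3C, both H3 genes, had 51 and 26 and 40 and 1 unsorted reads, also without sorted reads. Histone sgRNAs of the set had a median unsorted count of 40, while that of the other listed histone sgRNAs was 24.5, so here the set was not the scarcer part of its list. The direction varied between lists. The set had the higher median for proteasome genes (114 against 60) and splicing genes (89 against 52.5). It had the lower median for tRNA synthetases (30 against 63) and olfactory receptors (18.5 against 112).

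The 24 genes placed in no other group had a median of 86 unsorted reads, and 12 of their 45 sgRNAs were enriched (26.7%, Wilson interval 16.0 to 41.0), against 20.8% of all. They have varied roles and include LOC102724862, which RefSeq names TBC1D3I. CLIC5, a chloride intracellular channel protein, had 13 and 33, a ratio of 18.3 (9.37 to 37.9), and 58 and 0. DEC1, with 407 and 118 unsorted reads, and ERICH1, with 130 and 459, were among the most abundant of the set, and ERICH1 held its highest unsorted count. DEC1 was recovered on both sgRNAs, with 76 and 60 sorted reads, and was enriched on the second with a ratio of 3.66 (2.64 to 5.04). ERICH1 had no sorted read on the sgRNA with 130 unsorted reads and 90 on the other.

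The core machinery groups were drawn broadly and also hold genes such as EGR2, TCF4 and MAFF under transcription and chromatin, which need not be core machinery. Across the groups, the 130 genes of the core machinery groups had 185 of 248 sgRNAs without a sorted read (74.6%) and 37 enriched (14.9%). The 58 copy family and histone genes had 78 of 110 (70.9%) and 18 (16.4%). These compare with 57.6% and 20.8% of all sgRNAs, which are not matched for depth or gene class. Low unsorted counts were found in both, with medians of 49 and 29 against 103 for all listed sgRNAs. After the sgRNAs within 3 mismatches of another were left out, the medians were 50 and 44. Among further gene families, the set held 0 of 374 solute carriers, 2 of 547 zinc finger genes with the ZNF, ZFP or ZSCAN stem (0.366%), 2 of 145 keratin genes (1.38%), 5 of 132 cancer-testis genes (3.79%) and 2 of 41 defensins (4.88%), to be read against 1.11% of all genes. It also held 5 of 42 replication genes (11.9%), 4 of 34 tRNA synthetase genes (11.8%), 4 of 48 proteasome genes (8.33%) and 3 of 66 splicing genes (4.55%). These lists were drawn up with earlier results of these data known, and the membership counts are descriptions with no test between lists.

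Of the 207 genes of the set that could be placed in the RefSeq order of genes, 15 lay directly beside another gene of the set. Of these, 7 were tandem copies, namely CGB1 and CGB2, OR2M2 and OR2M5, and USP17L27, USP17L28 and USP17L29, while HIST2H2AA4 and HIST2H3A lie in a histone cluster. The remaining neighbours were CBWD1 with FOXD4, MFSD11 with SRSF2 and SBNO1 with SETD8, which are not copies of each other. MFSD11 had 76 unsorted and 5 sorted reads on one sgRNA and 33 and 0 on the other, unlike the enriched sgRNA of SRSF2. SBNO1 had 150 and 18 reads and 13 and 0, and SETD8, a histone H4 methyltransferase, 22 and 2 and 21 and 0, so neither gene had an enriched sgRNA.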

How the data were processed

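Genomic DNA of 1 unsorted and 1 sorted population was amplified in 24 PCR reactions of 20 cycles and then for 15 cycles, and sequenced on a MiSeq. The authors aligned the 20-base guide reads with Bowtie 1.2.2 against the sgRNAs of Brunello, allowing 3 mismatches and discarding reads that fitted more than 1 sgRNA, and deposited whole-number read counts per sgRNA with library totals, without normalization. The deposited columns of odds ratios, p-values and adjusted p-values hold the study's own comparison and were not used. The genome build is not given in the sources used here, and coordinates were therefore left out.

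After 3 repeated entries were dropped from 74339, the counts of distinct sgRNAs summed to the library totals. Each sgRNA was tested by two-sided Fisher's exact test on its reads and all other reads of each library, with Benjamini-Hochberg adjustment over 74336 sgRNAs. Intervals are exact (Clopper-Pearson) 95% intervals of the sorted share of an sgRNA's reads, turned into a ratio of library shares. An sgRNA with 0 sorted reads was given a floor of 3 reads for its bound, which leaves out the counting error of the unsorted library. Log2 ratios of library shares used a pseudocount of 0.5. Mismatches were counted position by position between all listed sgRNAs. RefSeq names (GRCh38.p14) matched 209 of 212 genes and were used for names and gene order only. The scripts, tested on simulated data, used Python 3.11.15, numpy 2.4.6, pandas 2.3.3, scipy 1.17.1, numba 0.67.0, R 4.3.3 and edgeR 4.0.16.

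The genes, gene lists and role groups were chosen with earlier results of these data known. The 13 role groups, which include the group of genes placed in no other, rest on textbook knowledge. Like the lists for cyclins and their kinases, Mediator, V-ATPase, USP17L, TBC1D3 and CGB, they were made after the gene names of the set had been seen. Genes were named by rule: the enriched sgRNAs that stood alone, the pairs both enriched, the largest odds ratios with at least 30 unsorted reads, the most abundant genes without sorted reads, the widest pairs, the highest and lowest unsorted counts, and up to 4 genes of each list with at least 3 in the set. Others were named after their values were seen, to describe each role group. Some genes of the set are not reported here by name.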

Additional observations from a re-analysis of the deposited data

How the results depend on the processing

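With 1 library per population, sequencing depth and PCR limit every value, no library could be left out, and sampling of cells at the sort and their expansion are not part of the error of Fisher's exact test. No paired analysis was possible because each group holds 1 library. The counts of 67 enriched and 159 depleted sgRNAs came to 73 and 161 with an odds ratio above or below 1, 70 and 155 with scaling on olfactory receptor sgRNAs, 52 and 161 with the adjustment repeated over sgRNAs with at least 30 unsorted reads alone, and 67 and 137 after the unsorted reads were thinned to the depth of the sorted library. With the last, and with the olfactory scaling, 6 genes had all listed sgRNAs enriched. Bonferroni adjustment left 58 enriched and 52 depleted, and 17.0% and 23.5% of all sgRNAs. edgeR's negative binomial exact test, with a dispersion of 2.74 estimated from olfactory receptor sgRNAs over both libraries, called 0 enriched, 0 depleted and 0 genes with all sgRNAs enriched. This test is void here, since 0 sgRNAs of the whole table reached an unadjusted p under 0.05 and the smallest p was 0.107. The 4 genes with all listed sgRNAs enriched became 7 with an odds ratio above 1 and 18 with at least 30 unsorted reads, where fewer sgRNAs per gene have to agree. Without sgRNAs within 3 mismatches of another, an alternative chosen after seeing the data, there were 10 such genes, 67 enriched and 158 depleted sgRNAs, and 69.9% of sgRNAs without a sorted read in place of 72.0%. The share without a sorted read was 62.5% with at least 30 unsorted reads. The median log2 ratio of the 403 sgRNAs was -2.28 and moved to -3.63 with at least 30 unsorted reads and to 0.31 with a pseudocount of 5 reads, because most have no sorted read and their ratio is set by the pseudocount. Counting sgRNAs by the number stored in the table, or before repeats were dropped, changed none of these values.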
